A study of Homo sapiens with 6 samples.

Results

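The genes of sterol and fatty acid synthesis were followed in YCC3 cells, a line from human gastric cancer, after transfection with siRNA against CTNNB1 (3 arrays) or with non-targeting control siRNA (3 arrays). An siRNA is a short RNA duplex that directs degradation of a matching mRNA, and CTNNB1 encodes beta-catenin, the co-activator of Wnt signalling. Both groups grew in serum-containing medium, and total RNA was taken 48 hours after transfection and read on Affymetrix Human Gene 1.0 ST arrays. The members were a named list of 30 genes, of which 28 had a row carrying their symbol alone, among 18417 genes so represented. They comprised 16 of 18 sterol enzymes, 6 of 6 fatty acid enzymes and all 6 genes of the regulatory proteins and of sterol transport. The only row naming HSD17B7 also named the pseudogene HSD17B7P2, and FDFT1 was not analysed here. Where a gene had several rows, the one with the highest mean over the 6 arrays was taken, which concerned CYP51A1 alone among the members. The labels call the samples biological replicates without saying how the cultures were separated, so the spread behind each p-value may be technical.

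Cholesterol is built from acetyl-CoA. Enzymes of the mevalonate pathway first make the isoprenoid farnesyl diphosphate, and later enzymes turn it into squalene, close the sterol rings and trim the ring system to cholesterol. Fatty acid synthesis draws on the same acetyl-CoA, which ACACA commits to malonyl-CoA and FASN lengthens to palmitate. Both routes are controlled by the SREBP transcription factors: SREBF2 acts chiefly on sterol genes and SREBF1 on fatty acid genes. When membrane sterol is low, SCAP escorts the SREBP precursors from the endoplasmic reticulum to the Golgi for cleavage, and when it is high, the INSIG proteins hold SCAP back.

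Promoters of these genes often pair a sterol regulatory element, bound by SREBP, with a CCAAT box, bound by the cofactor NF-Y. Stretches of 60 bases upstream of the start are shown for the 3 called genes MSMO1, HMGCS1 and ACACA. Others are shown for 4 of the genes whose arrays separated without passing the test, all of them higher, and for SREBF2. MVD, SQLE, PMVK, FDPS and CYP51A1 also separated without passing and are not shown. Of these, PMVK and CYP51A1 held no CCAAT box in their windows. Of the 25 members with a promoter window, SREBF2 alone held the full sterol motif. No window was matched for ACAT2, FASN and SQLE. The stretches are RefSeq sequences of build GRCh38.p14, read 5′ to 3′ in the direction of transcription. Capitals mark CCAAT, which on the opposite strand reads ATTGG, and in SREBF2 also TCACNCCAC.
MSMO1 (chr4:165327608-165327667, plus strand): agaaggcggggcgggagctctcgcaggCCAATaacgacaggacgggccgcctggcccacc
HMGCS1 (chr5:43313480-43313539, minus strand): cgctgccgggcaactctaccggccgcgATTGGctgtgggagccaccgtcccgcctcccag
IDI1 (chr10:1048941-1049000, minus strand): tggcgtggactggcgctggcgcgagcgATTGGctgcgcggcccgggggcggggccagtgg
SC5D (chr11:121292688-121292747, plus strand): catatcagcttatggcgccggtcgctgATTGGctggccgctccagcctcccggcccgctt
INSIG1 (chr7:155297681-155297740, plus strand): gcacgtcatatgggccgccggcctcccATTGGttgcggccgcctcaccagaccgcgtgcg
ACSS2 (chr20:34874839-34874898, plus strand): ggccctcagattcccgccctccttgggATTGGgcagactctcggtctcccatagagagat
ACACA (chr17:37299871-37299930, minus strand): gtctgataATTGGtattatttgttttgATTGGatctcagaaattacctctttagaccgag
SREBF2 (chr22:41832947-41833006, plus strand): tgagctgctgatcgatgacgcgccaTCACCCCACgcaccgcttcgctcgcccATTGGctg

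The CCAAT match nearest a start lay 34 bases upstream in MSMO1 and 100 bases upstream in HMGCS1. In windows of 300 bases, from 250 before to 50 after each start, CCAAT on either strand was found in 19 of the 25 members that had a window (76.0%). The share was 42.2% of the 14239 tested genes with a window. Counted by window, CCAAT was in 23 of 35 windows of members and in 34.6% of all 35116 windows. By role, 12 of 14 sterol enzyme genes held it, against 4 of 5 fatty acid enzyme genes and 3 of 6 of the regulatory and transport group. The 6 members without it were CYP51A1, PMVK, ELOVL6, INSIG2, SCAP and SREBF1. The full motif TCACNCCAC was in 1 of 25 members and 1.51% of tested genes. The E-box CACGTG, which SREBP can also bind, was in LSS, SC5D, INSIG1 and SCAP (16.0%, against 10.9% of tested genes). The shorter CACNCCA, part of the longer sterol motif and chosen after the first searches had been seen, was in 13 of 25 (52.0%, against 21.8%). Several genes had more than 1 window and a gene was counted once if any of them matched. These are matches of letters, not measured binding. Elements of another spelling, or outside the windows, would be missed, so a gene without a match may still hold one.

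Values are log2 signals after RMA, which removes background, gives all arrays the same distribution and combines the several probes of each row into a single value. The medians of the 6 arrays ran from 5.88 to 5.95. CTNNB1 itself went from 11.84 ± 0.05 to 11.07 ± 0.13 (SD, n = 3 each), and its groups did not overlap. Its change was -0.77 ± 0.10 log2 units, a 0.586-fold signal (limma, adjusted p = 0.00267), so part of the signal remained. A gene is said to have risen or fallen only where limma's p, adjusted by Benjamini-Hochberg over all 18417 genes, was under 0.05. Errors on changes are standard errors of that fit. In these bulk RNA samples, fewer cells of a kind and less RNA per cell cannot be told apart.

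Of the 28 genes, MSMO1 and HMGCS1 rose, ACACA fell, and 25 did not pass the threshold. The 2 rises were 7.14% of the members, where 2.07% of all genes rose, and the single fall was 3.57%, where 2.65% of all genes fell. In 8 members (28.6%) every CTNNB1 siRNA array lay above every control array, against 10.8% of all genes. In 4 members (14.3%) every CTNNB1 siRNA array lay below, against 15.2% of all genes. Changes were above 0 in 14 members and below 0 in 14, and their median was 0.02 log2 units, beside 0.01 for all genes. Without the dimmest 50% of genes, 27 members stayed, and the median over the 9209 genes left was -0.05. The 6 largest changes above 0, in MSMO1, HMGCS1, INSIG1, STARD4, ACSS2 and IDI1, came from all 3 groups of genes. Over all genes, rises made up 43.9% of calls as deposited, 50.6% after a second quantile normalization and 56.3% under cyclic loess.

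**Figure D1:**
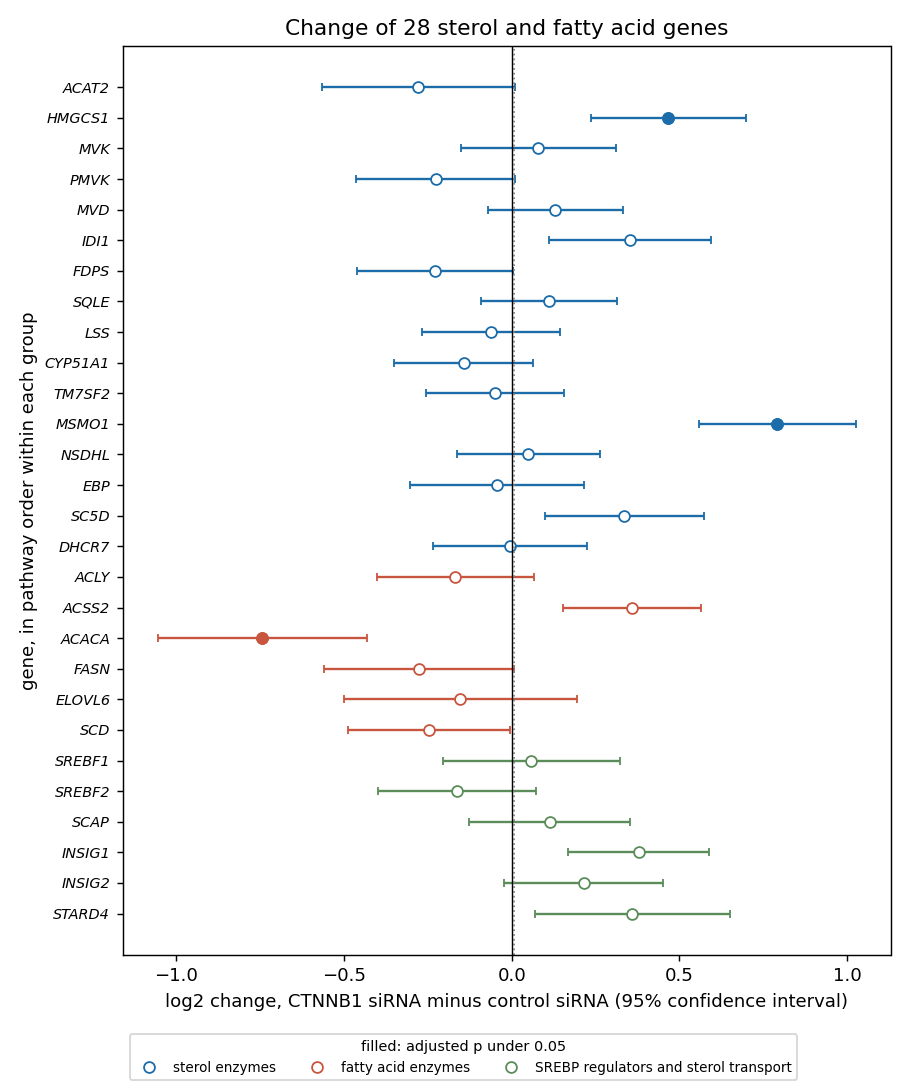
Log2 change (CTNNB1 siRNA minus control siRNA, x axis) of the 28 genes with 95% confidence intervals from limma (n = 3 arrays per group); filled points had an adjusted p under 0.05 and the dotted line is the median of all genes. MSMO1 (0.79) and HMGCS1 (0.47) lie to the right and ACACA (-0.74) to the left, while most sterol enzymes lie near 0.

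Among the 7 measured genes of the early, mevalonate part of the sterol route, HMGCS1 rose. HMGCS1 makes HMG-CoA, from which mevalonate is formed. Its log2 signals were 9.31, 9.33 and 9.40 in the control arrays and 9.67, 9.82 and 9.96 in the CTNNB1 siRNA arrays. The groups were separated by more than the whole range of the controls. The change was 0.47 ± 0.10 log2 units, a 1.38-fold signal (limma, adjusted p = 0.0323). This call was lost when any 1 of the 6 arrays was left out, with adjusted p lowest (0.0532) without CTNNB1 siRNA replicate 1 and highest (0.135) without control replicate 1. The change itself stayed between 0.40 and 0.54.

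IDI1, which isomerises the isoprenoid building block, measured 8.62, 8.64 and 8.75 in controls and 9.12, 8.84 and 9.11 with CTNNB1 siRNA. The groups did not overlap, but the change of 0.35 ± 0.11 did not pass (adjusted p = 0.0965). It passed under cyclic loess (adjusted p = 0.0321), 1 of 5 settings in which it did. MVD, the diphosphomevalonate decarboxylase, was also higher in each CTNNB1 siRNA array, at 7.37, 7.43 and 7.37 against 7.24, 7.24 and 7.30. Its change was small, 0.13 ± 0.09 (adjusted p = 0.473). The kinase gene MVK, one step after mevalonate, had overlapping groups and a change of 0.08 ± 0.10.

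The other 3 genes of the early part had changes below 0. ACAT2, the cytosolic thiolase that joins acetyl-CoA units, measured 9.36, 9.23 and 9.34 in controls and 8.77, 9.07 and 9.26 with CTNNB1 siRNA, so the lowest arrays were those of the siRNA group but the groups overlapped. Its change was -0.28 ± 0.13 (adjusted p = 0.260). FDPS, which makes farnesyl diphosphate, measured 9.68, 9.62 and 9.72 against 9.28, 9.49 and 9.56, with no overlap. Its change was -0.23 ± 0.10 (adjusted p = 0.253). The phosphomevalonate kinase gene PMVK was likewise lower in each CTNNB1 siRNA array, with a change of -0.23 ± 0.11 (adjusted p = 0.266). Neighbouring steps of the route thus had point estimates on both sides of 0.

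In the late part, from squalene to cholesterol, MSMO1 rose and the other 8 measured genes did not pass. MSMO1 is the methyl sterol oxidase that starts removal of the C4 methyl groups. It measured 9.08, 9.17 and 9.27 in controls and 10.10, 9.85 and 9.96 with CTNNB1 siRNA. The lowest CTNNB1 siRNA array was well above the highest control. The change was 0.79 ± 0.10 log2 units, or 1.73-fold with a 95% interval on the log2 scale of 0.56 to 1.03 (limma, adjusted p = 0.00267). This was the only member called with each of the 6 arrays left out in turn, with adjusted p of at most 0.0208. It was not called by a per-gene test without moderation (adjusted p = 0.0741).

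SC5D, the sterol desaturase that acts shortly before the end of the route, measured 8.55, 8.38 and 8.68 in controls and 8.87, 8.81 and 8.93 with CTNNB1 siRNA. The groups did not overlap, and the change was 0.34 ± 0.11 (adjusted p = 0.105). SQLE, the squalene epoxidase and an often rate-limiting step, was very even among controls, at 9.58, 9.57 and 9.59. It measured 9.71, 9.62 and 9.74 with CTNNB1 siRNA, a separated but small change of 0.11 ± 0.09 (adjusted p = 0.549).

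The remaining late enzymes had changes between -0.14 and 0.05 log2 units. NSDHL, which acts directly after MSMO1 in demethylation, changed by 0.05 ± 0.10, with a 95% interval of -0.16 to 0.26 that lies wholly below the interval of MSMO1. The ring-closing LSS measured -0.06 ± 0.09, the sterol reductase TM7SF2 -0.05 ± 0.09, the isomerase EBP -0.04 ± 0.12 and the last-step reductase DHCR7 -0.01 ± 0.10. The signs of EBP and DHCR7 turned under cyclic loess scaling, to 0.03 and 0.07. CYP51A1, the lanosterol demethylase, was lower in each CTNNB1 siRNA array on its brighter row, 10.15, 10.23 and 10.24 against 10.27, 10.37 and 10.40, with a change of -0.14 ± 0.09 (adjusted p = 0.440). Its second row was also lower in every CTNNB1 siRNA array, by -0.34 ± 0.12 (adjusted p = 0.266 over all rows). The row shared by HSD17B7, a 3-ketosteroid reductase, and HSD17B7P2 had overlapping groups and a change of -0.12 ± 0.10.

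**Figure D2:**
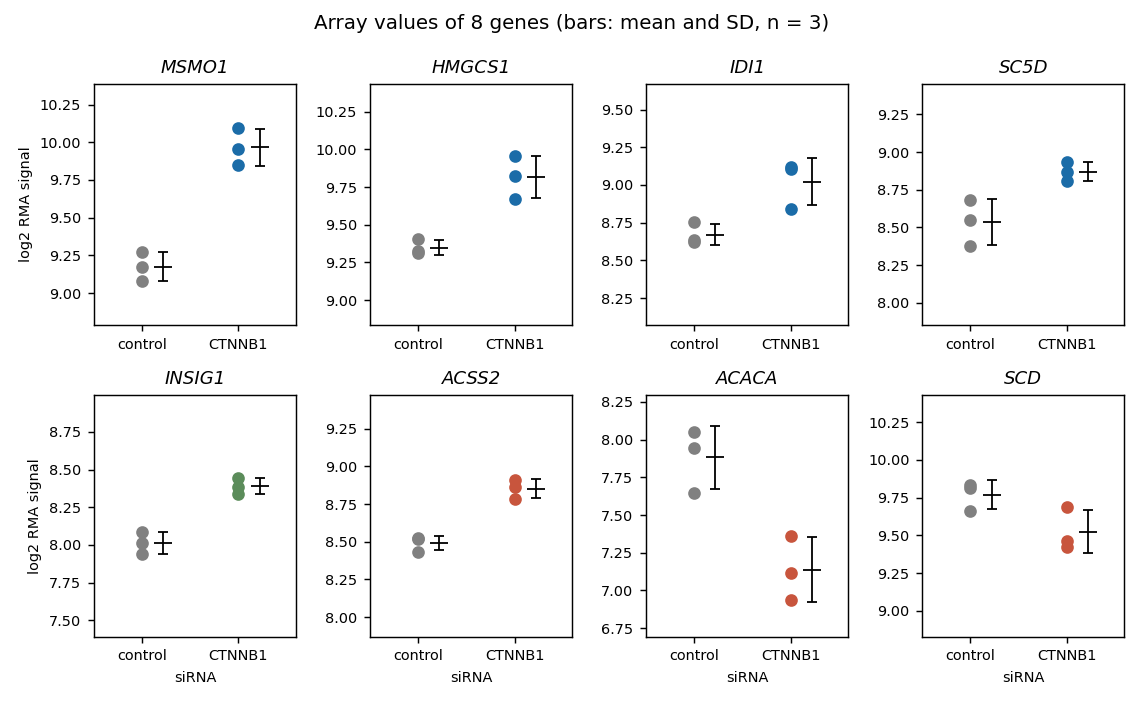
Log2 RMA signal (y axis, the same span in each panel) of 8 genes in the 3 control and 3 CTNNB1 siRNA arrays; points are arrays and bars are the mean and SD. MSMO1, HMGCS1, IDI1, SC5D, INSIG1 and ACSS2 are higher in all CTNNB1 siRNA arrays, ACACA is lower in all, and the SCD groups overlap.

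Of the fatty acid enzymes ACACA fell and none rose. ACACA is acetyl-CoA carboxylase 1, the committed step of fatty acid synthesis. It measured 8.05, 7.65 and 7.94 in controls and 7.12, 6.93 and 7.36 with CTNNB1 siRNA. Arrays varied more than for most members, and the groups still did not overlap. The log2 change was -0.74 ± 0.14, and the signal fell by 40.3% (limma, adjusted p = 0.0162), the 46th largest fall of all genes tested. The call was lost without control replicate 1 (adjusted p = 0.0812), control replicate 3 (0.0655), CTNNB1 siRNA replicate 1 (0.0797) or CTNNB1 siRNA replicate 2 (0.0564), with the change between -0.73 and -0.64.

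ACSS2, which makes acetyl-CoA from acetate in the cytosol, went the other way. It measured 8.44, 8.52 and 8.52 in controls and 8.91, 8.78 and 8.86 with CTNNB1 siRNA, with no overlap. The change of 0.36 ± 0.09 missed the threshold (adjusted p = 0.0572) and passed it under 6 of 17 other settings, cyclic loess (adjusted p = 0.0219) among them. ACLY, the enzyme that makes acetyl-CoA from citrate, measured 9.42, 9.27 and 9.44 against 9.31, 9.06 and 9.25, an overlapping -0.17 ± 0.11 (adjusted p = 0.418). The 2 sources of acetyl-CoA therefore had opposite signs, of which neither was called.

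FASN, the synthase that builds palmitate, measured 9.00, 8.87 and 9.14 in controls and 8.97, 8.63 and 8.58 with CTNNB1 siRNA. CTNNB1 siRNA replicate 1 lay within the control range, and the change was -0.28 ± 0.13 (adjusted p = 0.254). SCD, the desaturase that makes oleate, measured 9.82, 9.84 and 9.66 against 9.69, 9.42 and 9.46, a change of -0.25 ± 0.11 (adjusted p = 0.234). ELOVL6, which lengthens palmitate, had a row close to the array medians and a wide spread, with 6.28 ± 0.24 and 6.13 ± 0.26 (SD, n = 3 each). Its interval ran from -0.50 to 0.20.

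None of the 6 regulatory and transport genes passed, and 5 of 6 had changes above 0. INSIG1, the SREBP target that retains SCAP in the endoplasmic reticulum, came nearest. It measured 7.94, 8.01 and 8.09 in controls and 8.45, 8.39 and 8.34 with CTNNB1 siRNA, and the groups did not overlap. Its change was 0.38 ± 0.09, with adjusted p = 0.0503. It passed under 6 of 17 other settings, including cyclic loess (adjusted p = 0.0218), and under none that left out an array (adjusted p up to 0.201).

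Its relative INSIG2 measured 9.12, 9.12 and 9.36 against 9.34, 9.38 and 9.52, with overlap, and changed by 0.21 ± 0.11 (adjusted p = 0.296). STARD4, a soluble carrier of cholesterol, measured 7.95, 7.88 and 8.23 against 8.21, 8.35 and 8.58, a change of 0.36 ± 0.13 (adjusted p = 0.152). Control replicate 3 was just above CTNNB1 siRNA replicate 1. Transcripts of the SREBP factors themselves differed less. SREBF2 measured 9.00 ± 0.04 and 8.83 ± 0.16 (SD, n = 3 each), a change of -0.16 ± 0.11. SREBF1 changed by 0.06 ± 0.12 and SCAP by 0.11 ± 0.11, each with an interval that spans 0. Processing of SREBP protein is not read by these arrays.

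**Figure D3:**
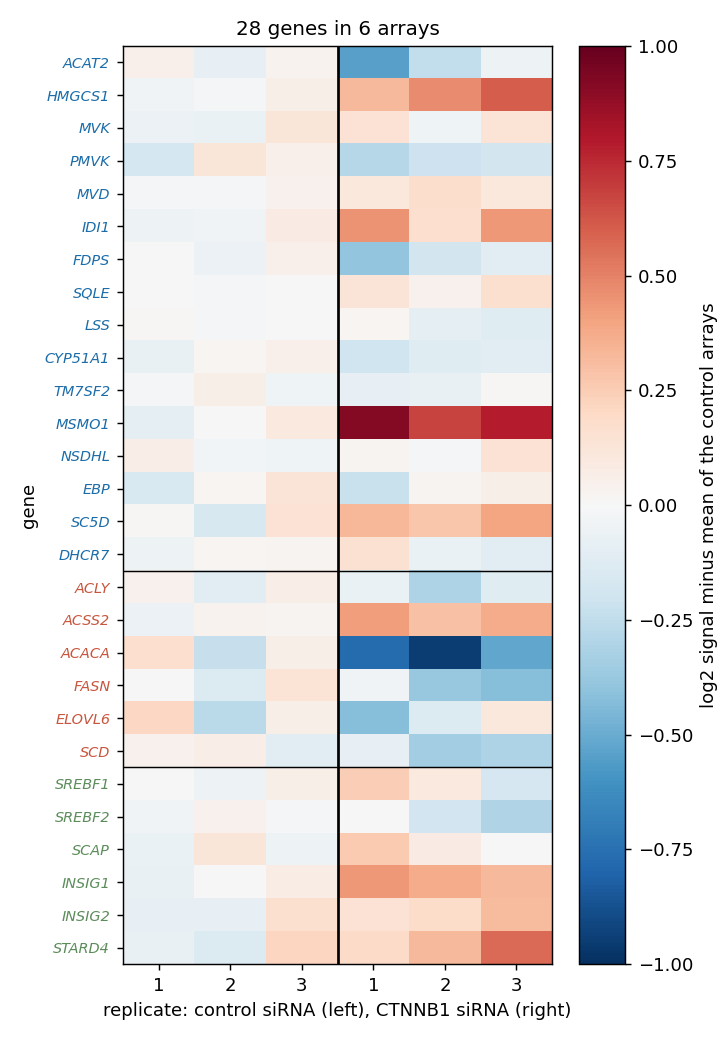
Log2 signal of each gene (rows, coloured by role as sterol, fatty acid and regulatory genes from top to bottom) in each of the 6 arrays (columns), minus the mean of the control arrays. Within the CTNNB1 siRNA arrays MSMO1 is highest in replicate 1 and HMGCS1 in replicate 3, and ACACA is lowest in replicate 2.

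Set side by side, 2 of 16 sterol enzyme genes rose (12.5%, where 2.07% of all genes rose) and none fell. Among fatty acid enzyme genes 1 of 6 fell (16.7%, where 2.65% of all genes fell) and none rose. These shares rest on 2 genes and 1 gene. The median change was 0.02 log2 units for the sterol enzymes (range -0.28 to 0.79) and -0.21 for the fatty acid enzymes (range -0.74 to 0.36). It was 0.16 for the regulatory and transport genes, 0.01 for all genes and -0.05 for the genes left without the dimmest 50%. Changes were above 0 in 8 of 16 sterol enzymes and in 1 of 6 fatty acid enzymes, ACSS2. At an unadjusted p under 0.05, in either direction, there were 4 of 16 sterol genes (25%), beside 20.3% of all genes. Over both directions the sterol count is near that background, and all 4 changes, in MSMO1, HMGCS1, IDI1 and SC5D, were above 0. There were 3 of 6 fatty acid genes (50%), with ACACA and SCD below 0 and ACSS2 above. Every CTNNB1 siRNA array lay above every control in 6 sterol genes (37.5%) and 1 fatty acid gene (16.7%), against 10.8% of all genes. Every one lay below in 3 (18.75%) and 1 (16.7%), against 15.2%.

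The same contrast was read array by array, as the median over a group of genes after subtracting each gene's control mean. For sterol enzymes this was -0.03, -0.02 and 0.05 in the controls and 0.07, -0.03 and 0.08 in the CTNNB1 siRNA arrays, so the groups overlapped. For fatty acid enzymes it was 0.04, -0.12 and 0.06 in the controls and -0.08, -0.33 and -0.22 with CTNNB1 siRNA. Here too the groups overlapped, since control replicate 2 lay below CTNNB1 siRNA replicate 1. For the regulatory and transport genes the medians were -0.07, -0.02 and 0.06 against 0.22, 0.14 and 0.15, without overlap. The difference between the sterol and the fatty acid enzymes was not tested, because the genes were chosen with results of these arrays known.

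**Figure D4:**
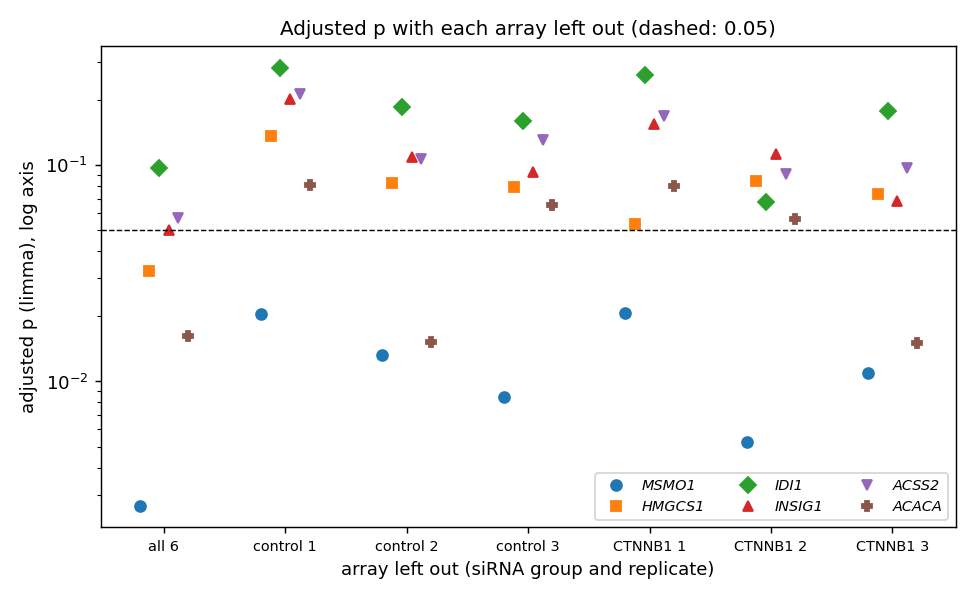
Adjusted p from limma (log axis) for 6 genes with all arrays and with each array left out (x axis); the dashed line is 0.05. Only MSMO1 stays below the line throughout, ACACA does so without control replicate 2 or CTNNB1 siRNA replicate 3, and HMGCS1, IDI1, INSIG1 and ACSS2 lie above it whenever an array is missing.

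Other genes of lipid metabolism, on lists written for the purpose, gave 2 calls, both lower. ABCA1, which exports cholesterol from cells, measured 6.33, 6.28 and 6.46 in controls and 5.82, 5.93 and 5.99 with CTNNB1 siRNA, a fall of 0.44 ± 0.10 log2 units (limma, adjusted p = 0.0338). It was the only call among 19 genes of sterol uptake, export and storage (5.26%, where 2.65% of all genes fell). Of these 19 genes, 13 had changes above 0, and the median change was 0.08. An unadjusted p under 0.05 was found for 6 of them (31.6%), beside 20.3% of all genes. GPAM, which starts glycerolipid assembly, measured 6.70, 6.45 and 6.44 against 5.99, 6.03 and 6.16, and fell by 0.47 ± 0.11 (adjusted p = 0.0379). It was the only call among 29 genes of fatty acid elongation, activation and lipid assembly (3.45%, against the same 2.65%). Of these 29 genes, 11 had changes above 0, the median was -0.01, and 6 (20.7%) had an unadjusted p under 0.05. The rows of ABCA1 and GPAM lay close to the array medians, and whether they exceed background is unknown. Both calls were lost without any of control replicates 1, 2 and 3 or CTNNB1 siRNA replicates 1 and 2, with adjusted p of up to 0.126 for ABCA1 (without CTNNB1 siRNA replicate 1) and 0.166 for GPAM (without control replicate 1).

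No gene was called in the 3 other lists, and their counts at an unadjusted p under 0.05 are near or below the 20.3% of all genes at that level. Changes were below 0 in 11 of 13 isoprenoid, 11 of 14 SREBP processing and 12 of 16 oxidation genes. This was so for 8992 of all 18417 genes. Every CTNNB1 siRNA array lay below every control in 4 (30.8%), 4 (28.6%) and 5 (31.25%) genes of these lists, against 15.2% of all genes. Every one lay above in 1 (7.69%), 0 and 0, against 10.8%. Among 13 genes of the isoprenoid branch, which carries farnesyl units to ubiquinone, dolichol and prenylated proteins, 3 had an unadjusted p under 0.05 (23.1%) and the median change was -0.15. The nearest were PDSS1, of the ubiquinone side chain, at -0.39 ± 0.10 (adjusted p = 0.0613), and RCE1, the protease of prenylated proteins, at 0.40 ± 0.13 (adjusted p = 0.125). Among 14 genes of SREBP processing and sterol sensing, 3 had an unadjusted p under 0.05 (21.4%), with VCP, the segregase that extracts proteins from the endoplasmic reticulum, at -0.33 ± 0.09 (adjusted p = 0.0737). MBTPS1, the site-1 protease that cleaves SREBP, was at -0.31 ± 0.09 (adjusted p = 0.0849). Among 16 genes of fatty acid oxidation 1 had an unadjusted p under 0.05 (6.25%), CPT1A, the mitochondrial entry step, at -0.28 ± 0.10 (adjusted p = 0.125), followed by ETFB at -0.21 ± 0.10.

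Interferon-stimulated genes, listed with results of these arrays known, moved with the groups. All 8 measured of 10 listed rose (100%, where 2.07% of all genes rose), by 1.53 (OAS1) to 4.28 (RSAD2) log2 units. Their arrays did not overlap, where 10.8% of all genes were higher without overlap. The other genes of this list that rose were IFIT1, IFIT2, IFIT3, ISG15, MX1 and OAS2. CH25H, an interferon-inducible gene whose product makes the SREBP-suppressing 25-hydroxycholesterol, was looked up after other values had been seen. It measured 4.67, 4.98 and 4.56 in controls and 5.11, 5.11 and 4.64 with CTNNB1 siRNA, an overlapping change of 0.22 ± 0.15 (adjusted p = 0.480) on a row dimmer than the array medians. The part of the interferon genes in the changes of the lipid genes was not tested.

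Several epithelial markers were bright, with KRT8 at 13.57 ± 0.08, EPCAM at 11.78 ± 0.11 and the gastric claudin gene CLDN18 at 11.21 ± 0.23 (SD, n = 3 each) in controls. The gastric genes TFF2 and MUC6 were close to the array medians, at 5.81 ± 0.02 and 5.74 ± 0.27 (SD, n = 3 each) in controls. The stomach peptide gene GKN1 was near the bottom of the scale, at 2.61 ± 0.04 (SD, n = 3). Of 12 measured gastric and epithelial markers 3 rose (25%, where 2.07% of all genes rose) and none fell. These were the gastric peptide gene TFF1, by 1.15 ± 0.11 log2 units (limma, adjusted p = 0.000314), the tight junction gene CLDN4, by 0.61 ± 0.10 (adjusted p = 0.00763), and CLDN18, by 0.52 ± 0.12 (adjusted p = 0.0380). Their part in the changes of the lipid genes was not tested. Control means of 6 leukocyte markers lay between 2.58 and 5.50, of 8 fibroblast and endothelial markers between 3.16 and 6.66, and of 8 adipocyte and hepatocyte markers between 2.47 and 6.80. None of the markers on these last 3 lists was called, and 1 had an unadjusted p under 0.05.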

How the data were processed

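The 6 samples of YCC3 RNA formed groups of 3, from 500 ng of total RNA each. The deposited values are log2 signals. Per the submitters' processing notes, the authors used RMA and Affymetrix Expression Console 1.1. That the scale is log2 follows from the range of the values. For the array rows, the genome build is not given in the sources used here. Since arrays were given a common distribution, a shift shared by most genes would not be seen. No background call per probe was used, and the small number of arrays limits precision.

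The table held 33297 rows. GEO's platform annotation gave 1 symbol for 19460 rows, several for 1754, and 12083 were unnamed. Of rows with 1 symbol, 19429 had a gene ID in RefSeq's table. The brightest row per gene was tested with the lmFit and eBayes functions of limma 3.58.1 under R 4.3.3, as a two-sided test of CTNNB1 siRNA minus control siRNA with no filter on dim genes. Arrays of the same group differed from each other (SD of the difference over genes 0.203 to 0.262). The fit was also run on simulated data with independent noise for each gene, which does not test the calls made here. The text names all members, CTNNB1, and of each further lipid or interferon list the called genes or, with none called, the 1 or 2 with the smallest p. Cell type markers are given as ranges and counts, with the called ones and a few others named, the latter after their values were seen. Members and lists were chosen with earlier results of these data known. Promoter windows came from RefSeq's GRCh38.p14 table and motifs were searched on both strands. The alternatives were a replicate block, other scalings, filters on dim genes, other variance models, other row choices and leaving out each array.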

Additional observations from a re-analysis of the deposited data

How the results depend on the processing

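MSMO1 kept its direction and its call in 16 of 17 other settings, ACACA in 12 and HMGCS1 in 10, and none of the 17 turned the direction of these 3 genes. The labels do not say whether replicate numbers pair the arrays, and the values were mixed. Same-numbered arrays had correlations of deviations of -0.02, 0.33 and 0.22 over genes, and 2 of 3 numbers correlated best with their own. Over all genes 470 rose and 707 fell with a replicate block, against 382 and 488 without it. With a replicate block the same 3 members were called, HMGCS1 rising by 0.47, and 1 isoprenoid gene was called in place of 0. The block changed no other count of calls by more than 1.5 times.

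Risen sterol enzyme genes, 2 in the main setting, numbered 4 under cyclic loess, without the dimmest 50% of genes and with trended and robust variance, and 0 without moderation, where 0 fatty acid enzyme genes fell. The median change of sterol enzyme genes was 0.089 under cyclic loess. ACSS2 was the 1 risen fatty acid enzyme gene under a second quantile normalization, cyclic loess, either filter on dim genes, trended and robust variance or array weights. In these 6 settings INSIG1 was the 1 risen regulatory gene, joined by STARD4 (2 in all) without the dimmest 50%. ELOVL6 had no value in that setting.

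Over all genes, 556 rose and 927 fell of the 13813 left without the dimmest 25%. Without the dimmest 50%, 645 rose and 1216 fell of 9209. Of all 18417 genes, 586 rose and 1036 fell with trended and robust variance, and 530 rose and 679 fell with array weights. Cyclic loess gave 488 rises and 379 falls, and the test without moderation 75 and 36. Counts of members and of lists in these settings stand beside these totals and are not read as results about those genes. Without the dimmest 25%, the further lists gave 1 isoprenoid call, 2 in SREBP processing, 2 in sterol uptake and 4 in elongation and assembly. Without the dimmest 50% these were 2 isoprenoid, 3 SREBP processing, 3 elongation and assembly and 1 fatty acid oxidation calls. With trended and robust variance they were 1 isoprenoid, 2 SREBP processing, 2 sterol uptake, 4 elongation and assembly and 1 oxidation calls. Array weights gave 1 isoprenoid, 1 SREBP processing, 2 sterol uptake and 2 elongation and assembly calls. Cyclic loess gave 2 calls in elongation and assembly, and the test without moderation 0.

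With 1 array left out, all-gene counts ran from 183 to 364 rises and from 95 to 513 falls. Risen sterol enzyme genes numbered 1 in each case, and fallen fatty acid enzyme genes, sterol uptake calls and elongation and assembly calls ran from 0 to 1. Signs turned only for genes near no change. DHCR7 (-0.01 in the main setting) was 0.035 under a second quantile normalization, 0.072 under cyclic loess and 0.0297 with array weights, and ran from -0.086 to 0.046 with 1 array left out. EBP was 0.033 under cyclic loess and ran from -0.121 to 0.0435 with 1 array left out, and SREBF1 from -0.036 to 0.173. The causes of these differences were not tested. Fewer genes entered the test under the filters, and fewer arrays when 1 was left out.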
